A study of Mus musculus with 2 samples.

Results

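The microRNA genes described here lie close together in an intron of Clcn5 on the X chromosome. The members were chosen by name and position, with earlier results of these counts known, among them the ratio of Mir362 between the hearts. Of the 6 genes named, Mir188, Mir362, Mir500, Mir501 and Mir532 matched a row by their identifier in GENCODE M21, so 5 of the 1973 genes counted are described. Mir660 matched no row by that annotation and was not analysed here.

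The counts come from small RNA libraries of heart tissue of 2 mouse pups of strain B6NCrl at postnatal day 0, with 1 library per heart and molecules under 30 nt. Replicate 1 is the heart of pup 1 and replicate 2 the heart of pup 3, and the sex of the pups was not recorded. There is 1 group and no second condition, so members are compared with each other and the 2 hearts side by side. The sense-strand counts of all microRNA genes summed to 6373797 in replicate 1 and to 7630427 in replicate 2. Levels are given as CPM, the count scaled to 1000000 of these counts. In both libraries cardiac muscle microRNAs (Mir208a, Mir208b and Mir499) took over 12% of the counts, at 12.2% and 12.5%, endothelial ones (Mir126a and Mir139) 14.7% and 12.5%, and smooth muscle ones (Mir143 and Mir145a) 9.41% and 8.77%. Fibroblast markers took 2.15% and 1.97%, erythroid markers 0.111% and 0.138%, and leukocyte markers 0.0522% and 0.0565%. The skeletal muscle microRNA Mir206 took 0.00712% and 0.0104% and the hepatocyte microRNA Mir122 took 0.00358% and 0.00446%, while the neuronal Mir124a-1 and Mir9-2, whose sequences recur in other precursors and can be undercounted, had 0 counts. The muscle microRNA genes Mir1a-1, Mir133a-1 and Mir133a-2 are outside these sets, and their sequences also recur and can be undercounted. Genes of a set did not all move alike. From replicate 1 to 2 Mir208b rose (101723 to 108150 CPM), while Mir208a (15419 to 11988 CPM) and Mir499 (5106 to 4847 CPM) fell. Of the erythroid genes Mir451a rose (931 to 1237 CPM), Mir144 fell (112 to 71.2 CPM) and Mir486 had 71.2 and 71.3 CPM. The part of these shifts between hearts in the members' ratios was not tested.

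A microRNA gene is transcribed into a hairpin, which is trimmed to a short duplex, and 1 strand of the duplex (the 5p or the 3p arm) guides repression of messenger RNAs. Targets are recognised mainly through the seed, bases 2 to 8 of the mature strand. Genes of a cluster may be cut from a single primary transcript, and those in an intron may share the promoter of the host gene or use one of their own. Clcn5 encodes an exchanger of chloride and protons in endosomes, best known from the kidney. In heart muscle cells miR-188-3p has been described as a repressor of the autophagy gene Atg7, and miR-532-3p as a repressor of the apoptosis inhibitor ARC.

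The hairpins are shown because each deposited count belongs to a whole hairpin and not to an arm. They are RefSeq sequences of build GRCm38.p6, written 5′ to 3′, with the mature arms that RefSeq lists in capitals, and all 5 have the same ends as the GENCODE genes. They are ordered along the direction of transcription, on the minus strand.
Mir532, chrX:7248402-7248497: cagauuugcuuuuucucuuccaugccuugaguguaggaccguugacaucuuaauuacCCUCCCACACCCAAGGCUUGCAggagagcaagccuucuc
Mir188, chrX:7247989-7248056: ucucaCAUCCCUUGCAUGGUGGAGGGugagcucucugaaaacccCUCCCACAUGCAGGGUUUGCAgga
Mir362, chrX:7241982-7242046: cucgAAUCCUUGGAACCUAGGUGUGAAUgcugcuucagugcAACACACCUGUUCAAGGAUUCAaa
Mir501, chrX:7241243-7241351: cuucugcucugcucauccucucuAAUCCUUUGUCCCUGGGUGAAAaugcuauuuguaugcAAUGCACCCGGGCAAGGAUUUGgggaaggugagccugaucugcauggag
Mir500, chrX:7237683-7237774: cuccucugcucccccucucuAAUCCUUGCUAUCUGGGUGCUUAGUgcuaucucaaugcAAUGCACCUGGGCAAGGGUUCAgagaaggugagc

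The mature strands fall into a Mir362, Mir501 and Mir500 set with like sequences and a Mir188 and Mir532 set. RefSeq lists 9 mature strands for the 5 genes, with 7 different seeds. For Mir532 it lists the 3p strand only, so a 5p strand of Mir532 enters neither these seeds nor the search for shared seeds. They are shown with the seed in capitals, because shared seeds tell which members could have targets in common.
miR-500-5p: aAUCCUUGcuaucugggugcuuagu
miR-362-5p: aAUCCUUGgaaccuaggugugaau
miR-501-5p: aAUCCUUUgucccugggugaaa
miR-188-5p: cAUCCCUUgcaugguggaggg
miR-500-3p: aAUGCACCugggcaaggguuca
miR-501-3p: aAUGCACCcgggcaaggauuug
miR-362-3p: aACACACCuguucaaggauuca
miR-532-3p: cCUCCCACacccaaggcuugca
miR-188-3p: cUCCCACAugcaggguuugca

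Within the cluster, miR-500-5p and miR-362-5p had the same seed, AUCCUUG. The seed AUGCACC was common to miR-500-3p and miR-501-3p. Those 3p strands were identical at 18 of 22 positions counted from the 5′ end, and differed by U9C, G18A, C21U and A22G (the miR-500-3p base first). Likewise, miR-500-3p and miR-362-3p were identical at 17 of 22 positions, but 2 of the differences, U3C and G4A, fall in the seed. The seed UCCCACA of miR-188-3p and the seed CUCCCAC of miR-532-3p have the run UCCCAC in common, moved by 1 base. Their hairpins had the 10 nt CCCUCCCACA in common, which cover the start of both 3p strands.

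Among all 1738 mouse mature strands of the RefSeq table, 2 strands of genes outside the cluster carried one of the 7 seeds. One was miR-329-3p, with the seed ACACACC of miR-362-3p. Its gene Mir329, on chromosome 12, had 730 counts in replicate 1 and 1025 in replicate 2, which is 114.5 and 134 CPM, below the level of Mir362 in each heart. The other, miR-7061-3p, had the seed of miR-188-5p, and its gene Mir7061 is not among the genes counted. No member had a run of 20 nt in common with another annotated microRNA precursor on either strand. The longest run was 14 nt, between Mir500 and Mir501, and for the other members 11 to 13 nt. Multiply matched reads were 35.9% and 34.6% of reads and enter no gene's count, and the tables do not say which genes they touch.

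All 5 genes lie in 1 intron of 103648 bases of Clcn5 (chrX:7153810-7319358, minus strand, mm10), which ends 24672 bases downstream of Mir500. It is intron 3 of the transcripts Clcn5-202 and Clcn5-204 and intron 2 of Clcn5-203. The transcripts Clcn5-201 and Clcn5-205 begin downstream of the cluster and do not hold it. The cluster spans 10815 bases. Mir532 and Mir188 are 345 bases apart, Mir362 follows after 5942 bases, Mir501 after a further 630 and Mir500 after a further 3468. The like sequences are thus also neighbours, with Mir532 and Mir188 at the upstream end and the other 3 downstream.

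Together the 5 genes had 36716 counts in replicate 1 and 47050 in replicate 2. As a share of the sense-strand counts this was 0.576% (Clopper-Pearson 95% interval from 0.570 to 0.582) for replicate 1 and 0.617% (from 0.611 to 0.622) for replicate 2, or 0.596% ± 0.0287 (SD, n = 2). Both hearts thus carried the cluster at a similar share, with replicate 2 above replicate 1 by more than counting error. The contrast between hearts was known when the members were chosen, so it only describes these libraries. All 5 had 0 counts on the opposite strand in both libraries. These intervals cover counting error only, and amplified reads need not be separate molecules. In heart tissue a change in the number of cells of a type and a change in RNA per cell cannot be told apart.

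Mir532, at the upstream end, was the most abundant member. It had 15134 counts in replicate 1 and 18987 in replicate 2, which is 2374 CPM (95% interval 2337 to 2412.5) and 2488 CPM (2453 to 2524). Its mean was 2431 ± 80.6 CPM (SD, n = 2), and it ranked 40 among the 1973 genes by mean CPM. Of the 358 genes with 10 or more counts in both libraries, 80 have a run of 20 nt in common with another precursor. Those genes can be undercounted and no member is among them, so the ranks given here can place the members too high.

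Mir188 came second. It had 12537 and 14534 counts, or 1967 CPM (1933 to 2002) in replicate 1 and 1905 CPM (1874 to 1936) in replicate 2. Mir188 was the only member with a lower level in replicate 2, and its mean of 1936 ± 44.0 CPM ranked 50.

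Mir501 followed, at 5044 and 7669 counts. Its level was 791 CPM (770 to 813.5) in replicate 1 and 1005 CPM (983 to 1028) in replicate 2, a mean of 898 ± 151 CPM and rank 77. The SD of Mir501 was 16.8% of its mean, against 3.31% for Mir532 and 2.27% for Mir188.

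Mir500, the member farthest downstream, had 2986 and 3770 counts. These are 468 CPM (452 to 486) in replicate 1 and 494 CPM (478 to 510.1) in replicate 2, a mean of 481 ± 18.1 CPM and rank 96. The 2 hearts were close for this gene, with an SD of 3.76% of the mean.

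Mir362 was the least abundant member and the one that varied most. It had 1015 counts in replicate 1 and 2090 in replicate 2, which is 159 CPM (149.6 to 169) and 274 CPM (262 to 286). Its mean was 217 ± 81.1 CPM, rank 125, and its SD was 37.4% of the mean.

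**Figure D1:**
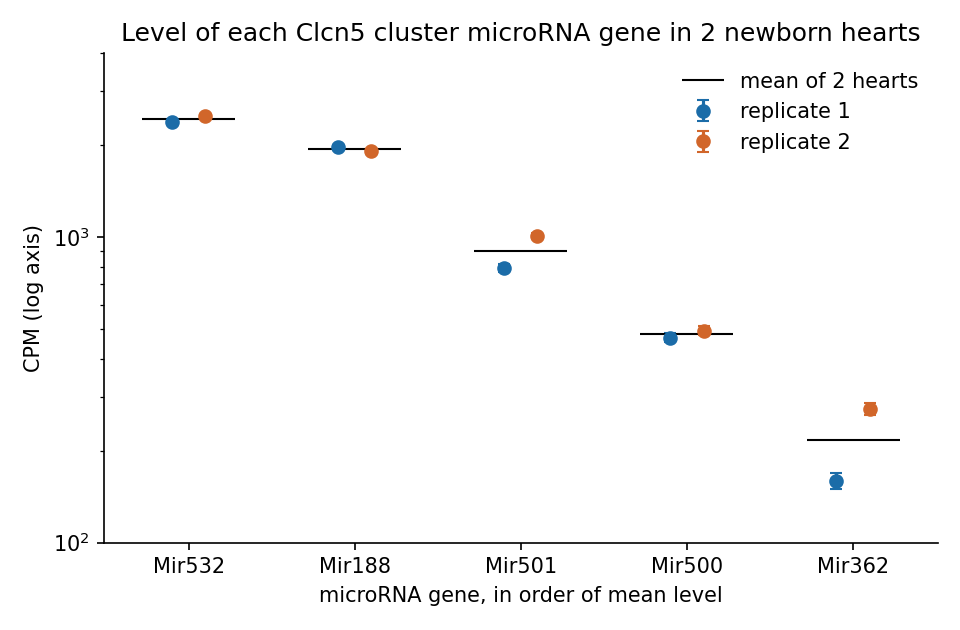
CPM on a log axis for each member, with 1 point per heart, exact 95% intervals of the count as bars and a line at the mean of 2 hearts. Mir532 and Mir188 sit near 2431 and 1936 CPM, and the points of the 2 hearts lie farthest apart for Mir362, at 159 and 274 CPM.

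The order of the members was the same in both hearts: Mir532, Mir188, Mir501, Mir500, Mir362. No 2 neighbours in that order overlapped when all 4 values of a pair were set side by side. The closest were Mir532 and Mir188, with a lowest Mir532 value of 2374 CPM and a highest Mir188 value of 1967 CPM. Mir532 exceeded Mir188 by 1.21-fold in replicate 1 (1.18 to 1.24) and 1.31-fold in replicate 2 (1.28 to 1.33), a mean log2 ratio of 0.33 ± 0.08.

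The step from Mir188 to Mir501 was 2.49-fold and 1.90-fold in replicates 1 and 2, and that from Mir501 to Mir500 was 1.69-fold and 2.03-fold. Mir500 exceeded Mir362 by 2.94-fold and 1.80-fold, a mean log2 ratio of 1.20 ± 0.50. In 2-sided exact binomial tests of all 10 pairs in both libraries against 1 to 1, all 20 fell under the threshold of 0.05 with Benjamini-Hochberg adjusted p-values of at most 5.54e-55, the value for Mir532 over Mir188 in replicate 1. These tests cover counting error only, and differences in how well a sequence is captured in a library are not removed. A read counts a whole small RNA, so CPM was not divided by length.

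From the most to the least abundant member the range was 14.9-fold and 9.08-fold in the respective hearts. The largest SD between hearts was for Mir188 over Mir362, at 12.4-fold and 6.95-fold, a log2 ratio of 3.21 ± 0.59. The steadiest of the 10 pairs was Mir532 over Mir500, at 5.07-fold (4.87 to 5.27) and 5.04-fold (4.86 to 5.22). Its log2 ratio was 2.34 ± 0.01, and the hearts differed by less than the width of these intervals. Mir532 and Mir500 are the genes at opposite ends of the cluster, 10723 bases apart from start to start. Every pair with Mir362 had an SD of its log2 ratio of at least 0.31, while the 3 pairs among Mir532, Mir188 and Mir500 had 0.01 to 0.09. These SDs follow from the members' ratios between the hearts, which were known when the members were chosen, and are no separate result.

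Levels did not fall in step with position. Mir501 exceeded Mir362, which lies 630 bases upstream of it, 4.97-fold and 3.67-fold in the respective hearts. Mir500, farther downstream than both, lay between them. The upstream pair of Mir532 and Mir188 together had 4341 CPM in replicate 1 and 4393 in replicate 2, or 4367 ± 36.6 CPM. The 3 downstream genes together had 1419 and 1773 CPM, or 1596 ± 250.3 CPM.

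**Figure D2:**
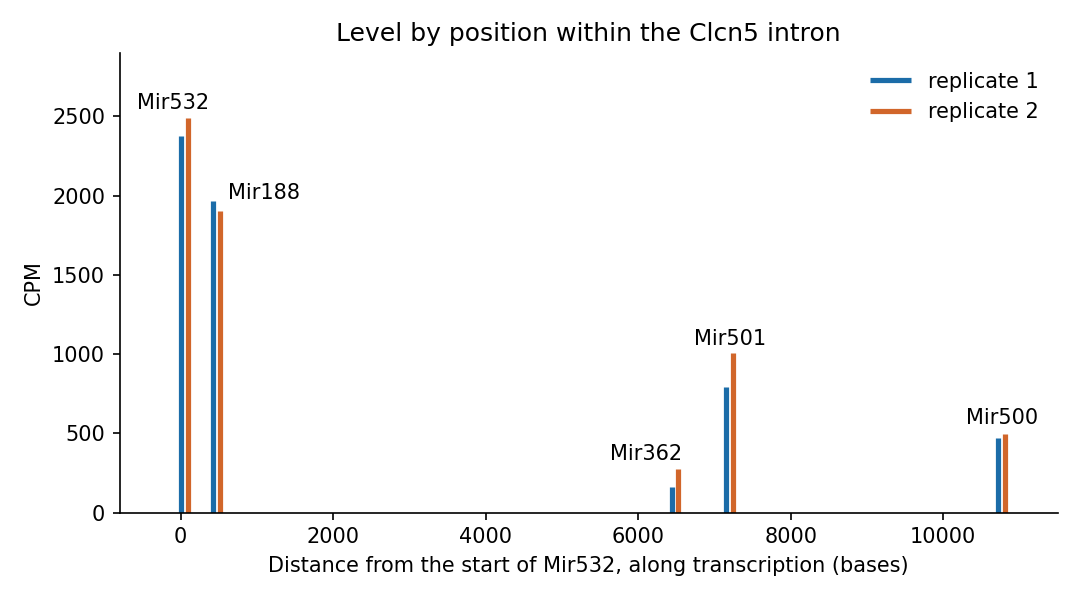
CPM of each member in each heart against distance from the start of Mir532 in bases, along transcription. The upstream pair is high in both hearts, and among the downstream genes the middle one, Mir501, is above Mir362 and Mir500.

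The 2 members with the highest counts, Mir532 and Mir188, made up 75.4% of the cluster in replicate 1 and 71.2% in replicate 2. Mir532 took 41.2% and 40.4%, and Mir188 took 34.1% (33.7 to 34.6) and 30.9% (30.5 to 31.3). Mir501 took 13.7% (13.4 to 14.1) in replicate 1 and 16.3% (16.0 to 16.6) in replicate 2. The share of Mir500 was 8.13% and 8.01%, with overlapping intervals of 7.86 to 8.42 and 7.77 to 8.26. Mir362 took 2.76% (2.60 to 2.94) and 4.44% (4.26 to 4.63). The make-up therefore differed between the hearts at Mir188, Mir501 and Mir362 by more than counting error. This restates the members' ratios between the hearts, which were known when the members were chosen, and is no separate result. The intervals of Mir532 (40.7 to 41.7 and 39.9 to 40.8) and of Mir500 overlapped, which does not show that their shares were equal. Shares within a heart are not independent, since a larger share of any member leaves less for the others.

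**Figure D3:**
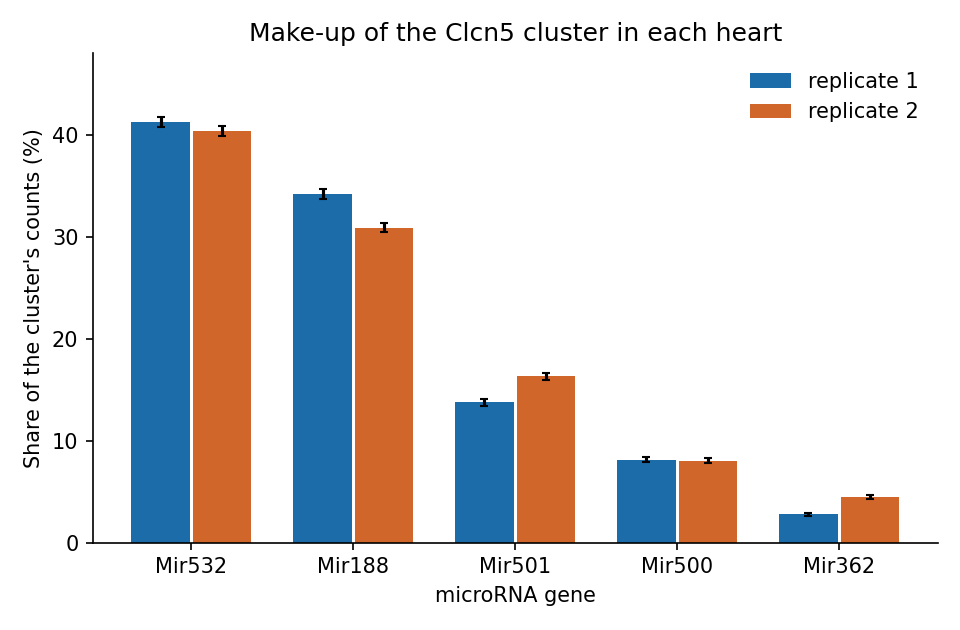
Share of the cluster's counts in percent for each member, with 1 bar per heart and exact 95% intervals. Mir188 has the smaller share in replicate 2 (30.9% against 34.1%), and Mir501 and Mir362 have the larger.

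Between the 2 hearts, Mir362 had the largest ratio of the members. It was 1.72-fold higher in replicate 2 (exact 95% interval 1.59 to 1.86), a log2 ratio of 0.78. Mir501, its neighbour, followed at 1.27-fold (1.23 to 1.32), and the other 3 were near 1. Mir500 was at 1.05-fold (1.005 to 1.11), Mir532 at 1.05-fold (1.03 to 1.07) and Mir188 at 0.968-fold (0.945 to 0.992). This contrast was known when the members were chosen, so the ratios, and the members' calls given next, only describe these libraries. They compare 2 libraries, and animal and library preparation cannot be told apart.

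By exact binomial tests given the library totals, with Benjamini-Hochberg adjustment over all genes, 31.0% of genes tested, 135 of 435, passed the threshold of 0.05. Of the 5 members 4 were among them, all but Mir500, a count that is no independent evidence because of how the members were chosen. By direction, 3 members were higher in replicate 2, against 19.1% of genes tested, and 1, Mir188, was higher in replicate 1, against 12.0%. With totals that leave out Mir126a, the most abundant gene of all, Mir532 was no longer called, which left 2 members higher in replicate 2 and 1 in replicate 1, against 15.9% and 14.9% of genes tested. Well counted genes pass more often: of the 79 other genes with totals between those of Mir362 and Mir532 (3105 to 34121 counts), 60.8% did. With a spread between hearts preset at a biological coefficient of variation of 0.1, the edgeR exact test called 1 of 435 genes (29 at an unadjusted p under 0.05), Mir181b-2, and 0 members.

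The members' median log2 ratio was 0.08, and that of all genes tested was 0.02. Of the 79 genes of like counts, 1 had a higher log2 ratio than Mir362 and 8 had a higher one than Mir501, and the median of their absolute log2 ratios was 0.11. These places are no separate result, since the ratios were known when the members were chosen. Mir362 also sets the lowest total of that range, so the genes beside it have as many counts or more. Mir500, Mir532 and Mir188 had absolute log2 ratios of 0.05 to 0.08.

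**Figure D4:**
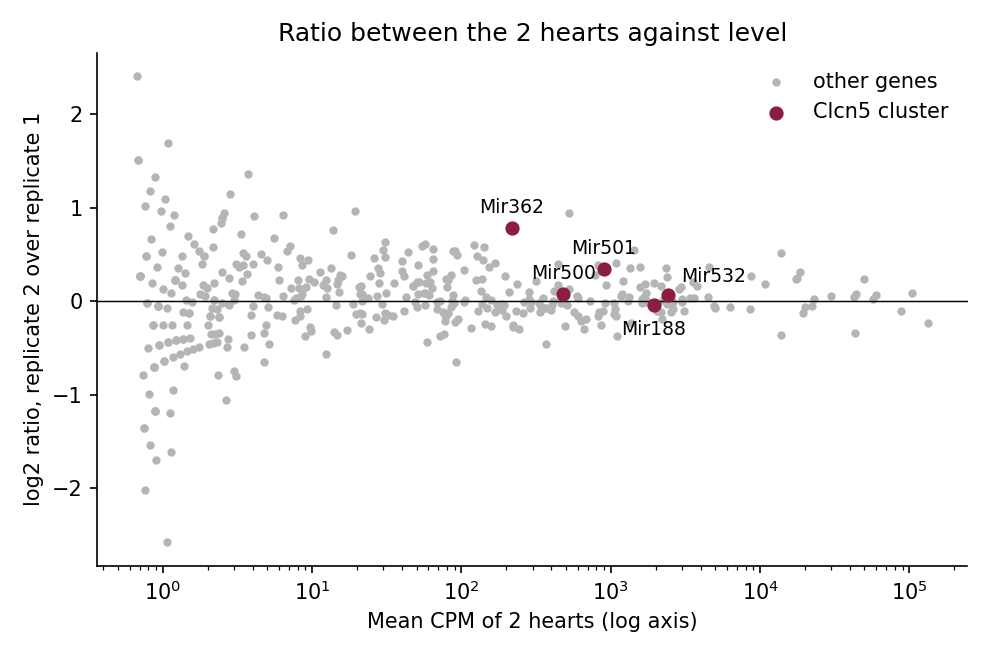
log2 ratio of replicate 2 over replicate 1 against mean CPM on a log axis, for the 435 genes with 10 or more counts together, with the members in dark red. Mir362 stands at 0.78 and Mir501 at 0.34, while the other 3 members are close to 0.

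All 5 members were in the upper part of the microRNA genes detected on the X chromosome. Of the 115 other microRNA genes there, 31 had 10 or more counts in both libraries, with a median of 78.0 CPM, beside 358 of all 1973 genes with a median of 64.6 CPM. A gene had to reach that count to enter these medians. Among the 36 detected genes of the chromosome, Mir532 ranked 6 by mean CPM and Mir188 ranked 8. Mir501 ranked 12, Mir500 ranked 14 and Mir362 ranked 17. The chromosome's most abundant microRNA gene was Mir322, at 56684 ± 472 CPM.

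The other X-linked microRNA genes took 8.87% of counts in replicate 1 and 9.49% in replicate 2. Of 38 tested, 12 passed as higher in replicate 2 and 1, Mir652, as higher in replicate 1 by the same exact binomial test. In percent these are 31.6 and 2.63, beside 19.1 and 12.0 over all genes. With totals that leave out Mir126a the counts were 9 and 2, or 23.7% and 5.26%, beside 15.9% and 14.9% over all genes. Several are neighbours, such as Mir322, Mir351 and Mir503, and do not vary independently. Mir351 had the largest difference in CPM, 11361 against 16262. Mir374b, also on the X chromosome, had 219 CPM in replicate 1 and 249 in replicate 2, and is one of the 2 genes nearest to Mir362 in level.

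The range within the Clcn5 cluster was set beside that of other clusters of at least 5 detected genes, where a cluster is a run of microRNA genes on 1 strand with starts at most 10000 bases apart. There were 7 such clusters. The mean range of the 2 hearts was 12.0-fold in the Clcn5 cluster and 12.2-fold in the X-linked cluster from Mir363 to Mir106a, where the counts were low. Which of these 2 was narrower differed between the hearts, since the Mir363 to Mir106a cluster had 11.1-fold in replicate 1 but 13.4-fold in replicate 2. The other 5 ran from 134-fold to 1764-fold, the widest being the cluster of Mir17. Of the other 6 clusters, 5 hold genes with a run of 20 nt in common with another precursor, whose counts can be too low, and larger clusters can span more. The difference between clusters was not tested.

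**Figure D5:**
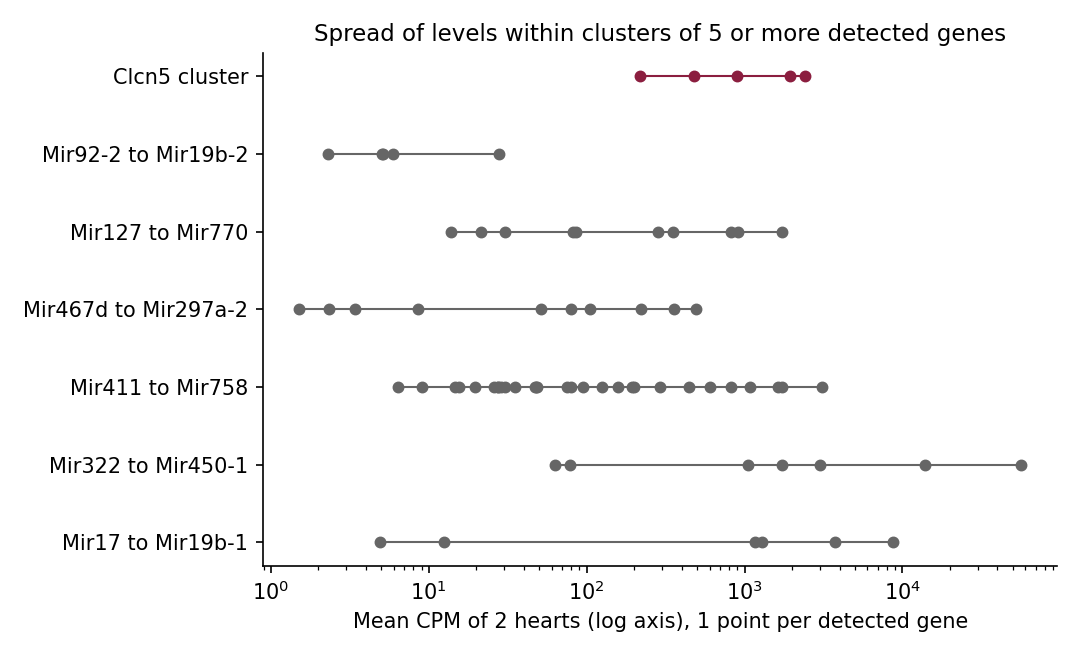
Mean CPM on a log axis of every detected gene, 1 point per gene, in the 7 clusters of at least 5 detected genes, ordered by range and named by the highest and lowest gene. The 5 points of the Clcn5 cluster span from 217 to 2431 CPM.

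By summed level the Clcn5 cluster had 5963 ± 287 CPM and ranked 14 of 45 clusters with at least 2 detected genes. Clusters whose genes have a run of 20 nt in common with another precursor can be undercounted, so this rank can be too high. The most alike were the X-linked pair of Mir98 and Mirlet7f-2, at 6011 ± 352 CPM, and the cluster of Mir93, Mir106b and Mir25 on chromosome 5, at 6400 ± 198 CPM. Mirlet7f-2 has sequence in common with another let-7 gene, so its count is uncertain. In the cluster of Mir93, which lies in an intron of the host gene Mcm7, the range from Mir93 to Mir25 was 9.92-fold and 11.5-fold.

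Some single genes had levels like those of the members, by distance in log2(CPM + 1) over the 2 libraries. For Mir532 they were Mir484, at 2410 and 2366 CPM, and Mirlet7f-2. The nearest to Mir188 were Mir130b, at 2109 and 1962 CPM, and Mir148a. For Mir501 they were Mir423, at 870 and 979 CPM, and Mir541, and for Mir500 they were Mir185, at 450 and 485 CPM, and Mir328. Mir362 had the most distant neighbours, Mir671 at a distance of 0.39 and Mir374b at 0.48, while for the other 4 members the nearest gene was at 0.14 or less. The ratio between hearts enters this distance and was known for Mir362 when the members were chosen, so its distance is no separate result.

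The hairpins differed in length and fold. Mir362 and Mir188 have the shortest, of 65 and 68 nt, and Mir501 the longest, of 109 nt. Their predicted minimum free energies were -28.5 kcal/mol for Mir362, -28.8 for Mir188, -33.2 for Mir532, -41.9 for Mir500 and -46.9 for Mir501. The order of these energies was not the order of the levels, since Mir188 and Mir362, with the least negative energies, were second and last in CPM. The energies were not divided by length, and the least negative belong to the shortest hairpins, so they do not rank the folds by strength.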

How the data were processed

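Small RNA libraries of 2 newborn hearts were counted per gene. The deposited tables hold read counts, not normalized, on mm10 with GENCODE M4, per the files that accompany them. Aligner, counter and trimming: not given in the sources used here. Of 3 count columns, the first is the sum of the others, so the second, with over 92% of gene counts (92.9% and 92.8%), was read as the sense strand. Rows naming no gene (unmapped 12.6% and 15.5%, multiply matched 35.9% and 34.6%, no feature 1.93% and 2.28% of reads) were left out. GENCODE M21 matched 1894 of 1973 identifiers.

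The members and lists were chosen with earlier results of these data known. Intervals are exact Clopper-Pearson. Pairs and hearts were compared with exact binomial tests, since 1 library per heart leaves edgeR's quasi-likelihood test no residual degrees of freedom. Mir660 being unmatched left 10 pairs of the 15 planned. Log2 ratios used 0.5 added counts, and genes with 10 or more counts together were tested. Named genes were all members, the 2 nearest in level, seed partners, and the clusters most alike or extreme in range. Genes named beyond this rule (Mir322, Mir351, Mir503, Mir652, Mir126a, Mir181b-2, Mir1a-1, Mir133a-1, Mir133a-2) and the count of calls among X-linked genes were chosen after their values were seen. Alternatives were both strands, each library alone, other totals, TMM factors, DESeq2 size factors, other minimums and pseudocounts, thinning and a preset spread. Folds came from ViennaRNA 2.7.2. Other tools were Python 3.11.15, SciPy 1.17.1, R 4.3.3, edgeR 4.0.16 and DESeq2 1.42.0.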

Additional observations from a re-analysis of the deposited data

How the results depend on the processing

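The cluster's share of counts, 0.596%, depends on what is counted in the total. It was 0.553% with counts on both strands, 0.688% with a total that leaves out Mir126a, and 0.313% with a total that includes multiply matched reads and reads in no feature. With either library alone it was 0.576% to 0.617%, and TMM factors and DESeq2 size factors moved it by less than 1 SD. The range within the cluster was 9.08-fold to 14.9-fold with either library alone. Of the pairs of members, all 10 kept their direction under each of the 5 alternatives run for the log2 ratio (both strands, either library alone, 0 or 5 added counts). All 20 tests passed with counts on both strands and with Bonferroni adjustment, and all 10 with either library alone. Of genes between hearts, 135 passed, and the edgeR exact test called 1 when the biological coefficient of variation was preset to 0.1 and 0 when preset to 0.2 (29 and 4 at an unadjusted p under 0.05), which allow for spread between hearts. Over the 7 alternatives run for each member, the log2 ratio between hearts was 0.75 to 0.81 for Mir362, 0.31 to 0.36 for Mir501, 0.04 to 0.08 for Mir500, 0.03 to 0.07 for Mir532 and -0.08 to -0.05 for Mir188. With a total that leaves out Mir126a, Mir532 no longer passed by the exact binomial test, which left 3 members, and the calls over all genes were 69 higher in replicate 2 and 65 higher in replicate 1, in place of 83 and 52. No paired analysis was possible because there is 1 group. With 2 hearts an SD is itself imprecise. Depth limited no comparison of members within a library, where the lowest count was 1015. Between hearts the calls depend on depth. Mir500 was not called at a log2 ratio of 0.077, while Mir532, with more counts, was called at 0.068.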
